A study of Mus musculus with 15 samples.

Results

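Very broad H3K27Me3 domains were long, nearly unbroken stretches of the mouse genome with above-average trimethylation of lysine 27 on histone H3 in uninduced pre-B cells. They were defined by the H3K27Me3 library of 0 h itself. The genome (build mm9, chromosomes 1 to 19 and X) was cut into 527807 windows of 5 kb, of which 503536 held a tag in at least 1 library. The level of a window, F, is its number of distinct tag positions over the mean of these windows in the same library, so that 1 is the library mean. Windows with an F of at least 1.5 were joined across at most 1 window between them. This gave 19058 runs, and the 1164 runs of 100 kb or longer (6.11%) are the domains. They covered 179.6 Mb and 7.13% of the windows with a tag.

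H3K27Me3 is laid down by Polycomb repressive complex 2, whose catalytic subunit is EZH2 or EZH1, and is read by the CBX proteins of Polycomb repressive complex 1. It is known for covering silent genes, among them the Hox clusters and other developmental regulators outside their tissue. H3K27Ac sits on the same lysine and cannot share a histone tail with H3K27Me3. It marks active promoters and enhancers, and H3K4Me1 marks poised and active enhancers.

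The libraries were chromatin immunoprecipitations followed by sequencing (ChIP-seq) of H3K27Me3, H3K27Ac and H3K4Me1 from C10 cells at 0, 3, 12, 24 and 48 h of induction, with 1 library per mark and time. C10 is a derivative of the HAFTL mouse pre-B cell line that carries C/EBPαER, a fusion of the myeloid transcription factor C/EBPα with the estrogen receptor, with GFP as its tag. Induced cells received β-estradiol (100 nM in the sample labels, while the study's methods give another unit) with IL-3 and CSF-1, which moves the fusion protein into the nucleus and turns the cells into macrophage-like cells, and control cells received the solvent, 0.1% ethanol. All values thus come from 1 cell line that carries a fusion protein and not from primary cells. Without replicates, the spread between samples of one time is unknown, and counts past a fold, medians over domains and intervals from tag counts are given, and all intervals (95%) cover counting error only.

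The 15 libraries held 10913733 to 31541879 distinct positions, with H3K27Me3 at 0 h the deepest and H3K4Me1 at 48 h the shallowest. The labelled cell type was checked by H3K27Ac at gene starts. All 8 pre-B cell markers (Pax5 and others) were at 4-fold the mean or more at 0 h, with a median F of 65.9, and all 8 still were at 48 h, with a median of 24.2. Of 8 macrophage markers (Itgam, Cd14 and others), 3 reached 4-fold at 0 h and 8 at 48 h, with medians of 2.25 and 40.5. None of 5 T cell markers (highest F 0.644 at 0 h and 0.696 at 48 h) and none of 5 fibroblast markers (highest 0.751 and 0.945) reached it at either time, and 1 of 5 erythroid markers did at both.

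The sequences that carried the contrasts described below were starts that gained H3K27Ac and sites far from any start where H3K27Ac appeared. The first 3 sequences are the 250 bases upstream of a gene's start in the reference genome (mm9, GENCODE vM1 starts), 5′ to 3′ on the gene's strand, with CG dinucleotides in capitals. Ifitm6, S100a8 and Fpr1, with 2, 2 and 1 CG, are myeloid genes whose starts gained H3K27Ac. They are at chr7:148202792-148203041 (minus strand, Ifitm6), chr3:90472743-90472992 (plus strand, S100a8) and chr17:18020905-18021154 (minus strand, Fpr1).
Ifitm6: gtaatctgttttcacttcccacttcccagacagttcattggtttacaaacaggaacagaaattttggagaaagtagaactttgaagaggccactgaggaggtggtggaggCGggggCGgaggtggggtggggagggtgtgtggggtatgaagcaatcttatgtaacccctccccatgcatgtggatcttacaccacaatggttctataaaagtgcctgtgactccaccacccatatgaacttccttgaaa
S100a8: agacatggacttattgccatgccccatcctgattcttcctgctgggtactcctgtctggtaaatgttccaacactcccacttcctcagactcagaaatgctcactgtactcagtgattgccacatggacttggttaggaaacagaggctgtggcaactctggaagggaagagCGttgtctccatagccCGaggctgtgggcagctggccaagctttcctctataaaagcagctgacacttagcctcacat
Fpr1: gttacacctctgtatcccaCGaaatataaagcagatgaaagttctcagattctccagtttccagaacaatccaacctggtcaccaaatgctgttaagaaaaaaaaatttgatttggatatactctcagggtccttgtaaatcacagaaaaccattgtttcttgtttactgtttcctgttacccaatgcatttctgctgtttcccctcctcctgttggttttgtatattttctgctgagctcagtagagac

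The other 4 sequences are stretches of 100 bases from sites in domains that had 0 to 4 H3K27Ac tags per 1 kb at 0 h and were among the highest at 48 h. They are shown on the plus strand of mm9, with the letters TTGCNNAA, the core of the C/EBP motif, on either strand (TTNNGCAA on the other) in capitals. These 4 were picked from the 8 of the 20 highest new sites that hold these letters. Their letters thus do not show how common the letters are at such sites. The site at chr8:27349657-27349756 lies 80.8 kb from the start of Thap1, the one at chr1:80781732-80781831 lies 26.4 kb from Dock10, the one at chr9:69214723-69214822 lies 31.2 kb from Narg2 and the one at chr2:102807694-102807793 lies 65.7 kb from Cd44, the hyaluronan receptor.
Thap1 site: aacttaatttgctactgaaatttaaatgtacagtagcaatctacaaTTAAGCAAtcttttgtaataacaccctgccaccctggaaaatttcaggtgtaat
Dock10 site: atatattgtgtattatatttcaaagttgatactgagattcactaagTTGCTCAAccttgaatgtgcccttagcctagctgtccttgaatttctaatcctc
Narg2 site: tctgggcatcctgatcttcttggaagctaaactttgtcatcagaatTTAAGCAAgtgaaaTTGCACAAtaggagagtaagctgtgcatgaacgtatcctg
Cd44 site: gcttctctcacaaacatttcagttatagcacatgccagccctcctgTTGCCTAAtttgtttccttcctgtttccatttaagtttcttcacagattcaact

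In the 1 kb around the Thap1 site, H3K27Ac tags were 0, 4, 60, 197 and 512 at 0, 3, 12, 24 and 48 h, and H3K27Me3 tags were 31, 16, 24, 16 and 1. At the Dock10 site H3K27Ac tags were 2, 60, 233, 447 and 453, and H3K27Me3 tags were 26, 29, 7, 3 and 4. Both sites thus had far more H3K27Ac and less H3K27Me3 at 48 h than at 0 h. At the Dock10 site most of the H3K27Me3 fall came by 12 h, as H3K27Ac rose. At the Thap1 site H3K27Ac was already up at 12 and 24 h, and H3K27Me3 was low only at 48 h. Whether the 2 marks lay in the same cells at these times was not tested.

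The domains had a median length of 135 kb, 10% were 220 kb or longer, 191 reached 200 kb and 37 reached 300 kb. The length limit cut through a continuous distribution. There were 120 runs of exactly 95 kb, with a median F of 2.23 at 0 h, and 85 of exactly 100 kb, with 2.25, so that the shortest domains and the longest runs left out had about the same level. The longest domain, chr14:25535001-26180000 (645 kb), held no protein-coding start and lay 98.7 kb from Zmiz1, which encodes a coactivator. Its H3K27Me3 was 2.33, 2.25, 2.09, 2.00 and 2.07 at 0, 3, 12, 24 and 48 h. Of the 10 longest domains, 5 held no protein-coding start, and 3 of the 10 lay within 2965 kb of each other around the Hoxd cluster on chromosome 2.

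Chromosome 2 held the most domains (119), followed by chromosomes 1 (105) and 11 (96), and by share of windows chromosomes 19 (14.0%) and 11 (13.0%) led. Chromosome X held 2 domains (0.143% of its windows). Its mean F at 0 h was 0.436 for H3K27Me3, 0.32 for H3K27Ac and 0.296 for H3K4Me1, so all 3 marks were below the library mean on this chromosome. Of those 2, chrX:166345001-166450000, which holds Gm17379 and part of Mid1 and had the highest H3K27Me3 of all domains at 3 h (F 4.54), was also far above the mean in H3K27Ac (6.34, 7.48 and 9.17 at 0, 3 and 12 h, and higher still at 24 and 48 h) and H3K4Me1 (9.74, 10.6, 12.6, 12.2 and 11.3 over the 5 times). Every mark was thus high there at every time. No input library was analysed here, so enrichment and a higher copy number of this sequence cannot be told apart.

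The domains were richer in G and C (44.0%) than windows outside runs (41.2%), with 9.76 against 8.02 CpG per kb and an observed over expected CpG ratio of 0.202 against 0.189. Single domains ranged from 36.1% to 54.0% GC. Shorter runs had nearly the same composition (44.0% for 50 to under 100 kb, 43.4% for 20 to under 50 kb) but more protein-coding starts, 11.1 and 12.9 per Mb against 9.1 in the domains and 8.03 outside runs. The domains thus shared their base composition with shorter H3K27Me3 runs and were the poorest in genes among the 3 length classes.

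At their edges, mean H3K27Me3 at 0 h went from about the library mean in the last window outside to 2.09 in the first window inside and 2.30 in the next, which the rule itself set. H3K27Ac, which the rule did not use, went the other way, from 2.46 just outside to 0.869 and 0.524 at 0 h. The medians over edges differed far less (0.397, 0.364 and 0.331), so the high mean outside came from a minority of edges next to strongly acetylated windows. At 48 h the step in mean H3K27Ac was from 2.11 to 1.06 and 0.694, lower outside and higher inside than at 0 h. The medians at 48 h were 0.368, 0.338 and 0.307, so the typical edge was not higher inside.

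Across the time course the domains as a whole kept H3K27Me3. The median level over the 1164 domains was 2.26, 2.24, 2.39, 2.37 and 2.45 at 0, 3, 12, 24 and 48 h, while the median window outside all runs had 0.639, 0.639, 0.586, 0.576 and 0.558. At 48 h, 1155 domains (99.2%, 98.5 to 99.6) still had a mean of at least 1.5, and the lowest was at 1.16. The share of H3K27Me3 tags that fell in domains was 16.6% at 0 h and 17.8% at 48 h.

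**Figure D1:**
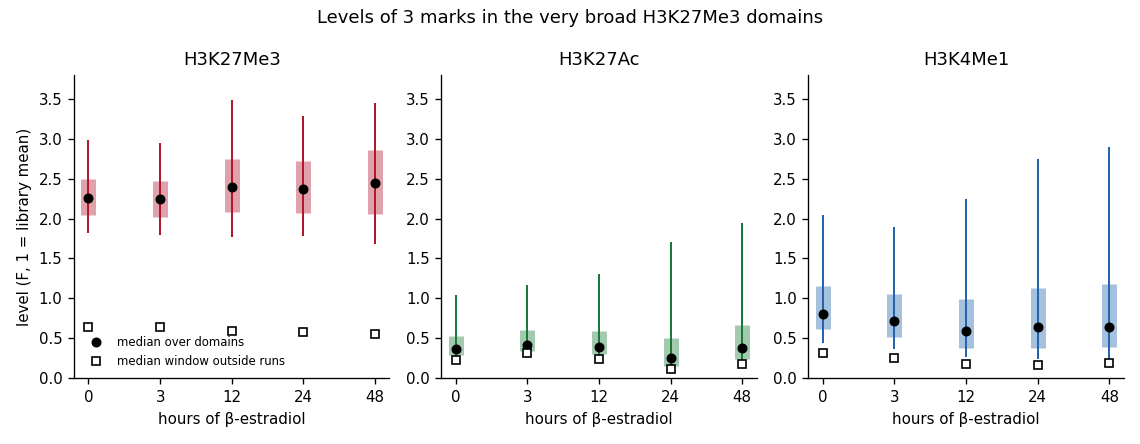
Levels of H3K27Me3, H3K27Ac and H3K4Me1 (F, 1 is the library mean) in the 1164 domains at each time in hours of β-estradiol. Black points are medians over domains, thick bars the middle 50%, thin lines the 5th to 95th percentile and open squares the median window outside runs. The H3K27Me3 medians stay between 2.24 and 2.45 while the 95th percentile of H3K27Ac goes from 1.04 to 1.94.

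Calling the domains anew with each later library gave 1100, 1110, 1217 and 1225 domains at 3, 12, 24 and 48 h. Of the 1164 domains of 0 h, 940 (80.8%), 911 (78.3%), 951 (81.7%) and 885 (76.0%, 73.5 to 78.5) were covered by at least 50% at these times. The share was already short of all domains at 3 h, in a library of 18133958 positions against 31541879 at 0 h, and moved by less after that. Of the 1225 domains of 48 h, 310 (25.3%) touched no domain of 0 h. This already held for 142 of the 1100 domains of 3 h (12.9%), and for 16.1% at 12 h and 20.5% at 24 h.

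H3K27Ac and H3K4Me1 were low in most domains and spread out over time. Median H3K27Ac over domain means was 0.37, 0.416, 0.387, 0.248 and 0.377, and the median single window outside runs had 0.232, 0.316, 0.247, 0.115 and 0.184. These measures are unlike, since a mean over many windows takes in its few high ones. In single windows 20 kb inside an edge the median was 0.298 at 0 h and 0.276 at 48 h. The domains held 3.36% of H3K27Ac tags at 0 h and 4.33% at 48 h, against 7.13% of the windows. Domains at 1.5 or more in H3K27Ac numbered 19, 33, 42, 69 and 88, so that the upper tail grew while the median did not. Median H3K4Me1 was 0.804, 0.714, 0.593, 0.646 and 0.644, and 152, 129, 156, 190 and 213 domains reached 1.5. At or above 1.5 in all 3 marks were 17 domains at 0 h and 86 at 48 h. A mean H3K27Ac under 0.5 was found in 834 domains (71.6%) at 0 h and 754 (64.8%) at 48 h.

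Changes were counted as a mean F at least 1.2-fold higher or lower for H3K27Me3 and 1.5-fold for the other marks, and were read against tiles of 100 kb over the whole genome. From 0 h, the library that chose the domains, to 3 h, 0 domains were higher in H3K27Me3 (0.857% of tiles) and 0 lower (0.719% of tiles). From 3 h to 12 h, 151 domains were higher (13.0%, tiles 4.9%) and 6 lower (0.515%, tiles 11.5%). From 3 h to 48 h, 264 were higher (22.7%, 20.3 to 25.2) against 10.6% of tiles and 35 were lower (3.01%, 2.10 to 4.16) against 28.3% of tiles. Neither of these libraries chose the domains. The median log2 change from 3 h to 48 h was 0.11 in domains and -0.12 in tiles, and single domains ranged from -0.59 to 0.95.

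This pattern was not particular to the longest runs. Runs of 50 to under 100 kb were higher in 31.4% and lower in 4.95%, and runs of 20 to under 50 kb in 29.1% and 9.02%. Scaling each library by its background, the median window outside runs, in place of its mean shifted all H3K27Me3 changes by 0.19 on the log2 scale. The counts then became 667 higher and 5 lower in place of 264 and 35. Tiles were not counted anew under this scaling, and the shift of 0.19 is larger than the fall in their median (-0.12).

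From 0 h to 48 h, 248 domains were higher in H3K27Ac (21.3%, against 13.2% of tiles) and 192 lower (16.5%, against 19.7% of tiles). In H3K4Me1, 161 were higher (13.8% against 9.2% of tiles) and 491 lower (42.2% against 51.2% of tiles). The domains thus had somewhat more increases and fewer decreases than the genome in both marks. Shorter runs were alike, with 21.2% higher and 17.4% lower in H3K27Ac and 15.5% higher in H3K4Me1 among those of 50 to under 100 kb. The median log2 change was -0.14 for H3K27Ac and -0.49 for H3K4Me1, and both signs flip under background scaling, to 0.19 and 0.30, because that scaling shifts them by 0.33 and 0.79. The counts under it were 353 higher and 68 lower for H3K27Ac, and 426 and 23 for H3K4Me1. How many domains count as higher or lower therefore depends on the scaling, which shifts all domains alike and leaves their order unchanged.

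**Figure D2:**
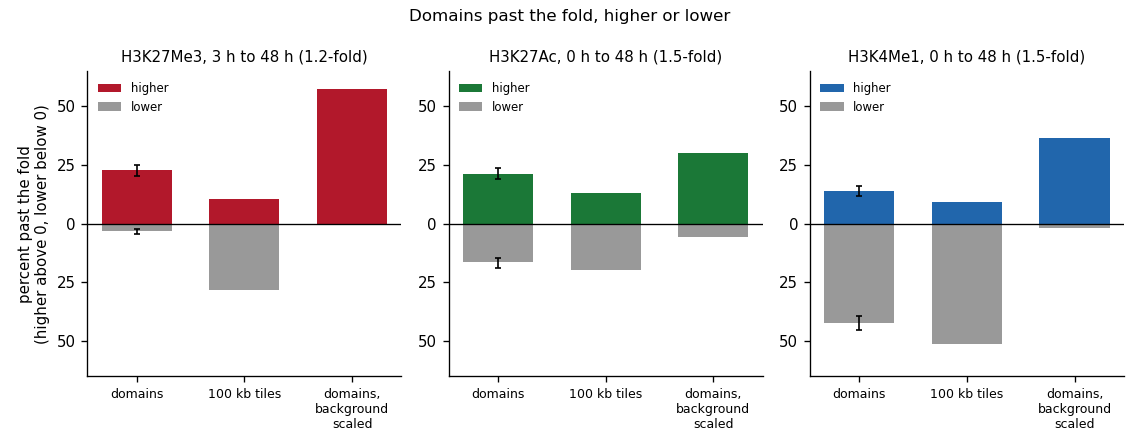
Percent of domains past the fold, higher above 0 and lower below 0, for H3K27Me3 (3 h to 48 h, 1.2-fold), H3K27Ac and H3K4Me1 (0 h to 48 h, 1.5-fold), beside all 100 kb tiles and the domains after background scaling. Error bars on the first bars are exact 95% binomial intervals. For H3K27Me3 by library mean the domains have more increases (22.7%) than decreases (3.01%), and tiles the reverse (10.6% and 28.3%). The tiles are not background scaled.

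The H3K27Ac library of 24 h stood apart. Between 12 h and 24 h, 636 domains (54.6%) were lower in H3K27Ac, as were 59.7% of tiles, and between 24 h and 48 h, 551 (47.3%) were higher, as were 40.5% of tiles. Domains moved in this with the genome at large, and the change from 0 h to 48 h does not use that library.

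Most domains that gained H3K27Me3 also gained H3K27Ac. Of the 264 domains higher in H3K27Me3 from 3 h to 48 h, 161 (61.0%, 54.8 to 66.9) were also higher in H3K27Ac and 127 (48.1%) in H3K4Me1, and 9 and 10 were lower. Of the 35 domains lower in H3K27Me3, 0 were higher in either active mark, 23 (65.7%) were lower in H3K27Ac and 35 in H3K4Me1. Most of the 491 domains lower in H3K4Me1 (446) had neither change of H3K27Me3, so this pairing of calls holds for the domains that changed in H3K27Me3 and depends on the scaling as the counts do. Their medians over the 264 domains were 2.24 at 3 h and 3.01 at 48 h for H3K27Me3, 0.431 at 0 h and 0.851 at 48 h for H3K27Ac, and 0.989 and 1.51 for H3K4Me1. Only 9 of the 35 lower domains (25.7%) held a protein-coding start, against 184 of the 264 (69.7%), and their median GC was 41.2% against 44.5%.

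Over all 1164 domains the rank correlation (Spearman) of the log2 change of H3K27Me3 (3 h to 48 h) was 0.65 with that of H3K27Ac and 0.77 with that of H3K4Me1 (both 0 h to 48 h). The domains share these libraries, their depths and their base composition, and the H3K27Me3 change also correlated with GC content (0.31). Within 3 equal classes of low, middle and high GC (388 domains each) the correlation with H3K27Ac was 0.66, 0.72 and 0.59. It was 0.64 in the 2222 runs of 50 to under 100 kb and 0.37 in 25230 tiles. The correlation with H3K4Me1 was 0.70 in these runs and 0.60 in the tiles, so it was not particular to the domains. The part of GC content in this was not tested beyond these classes.

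Acetylation within the domains was also read as islands. An island is a run of 1 kb bins of at least 4 times the mean, joined across at most 1 bin, and it was assigned to a domain by its highest bin. The domains held 967, 995, 1115, 1395 and 1548 H3K27Ac islands at 0, 3, 12, 24 and 48 h, 3.83% to 4.61% of those in the genome. This is 5.39 per Mb at 0 h and 8.62 at 48 h, against 10.3 and 13.7 in the genome. H3K4Me1 islands numbered 2856 at 0 h and 3841 at 48 h, at a density (15.9 and 21.4 per Mb) close to that of the genome (16.2 and 20.5). At least 1 H3K27Ac island lay in 533 domains at 0 h (45.8%) and in 639 at 48 h (54.9%). These counts depend on the scaling, and 4 times the background in place of 4 times the mean gave 5486 H3K27Ac islands in domains at 0 h and 8766 at 48 h.

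Islands turned over more in domains than outside. Of the 1548 islands at 48 h, 928 (59.9%, 57.5 to 62.4) overlapped none of 0 h, against 38.1% outside domains, and of the 967 at 0 h, 346 (35.8%, 32.8 to 38.9) were lost by 48 h, against 18.6%. Runs under 100 kb lay between, with 52.4% new (50.9 to 54.0) and 25.1% lost (23.4 to 26.8). With background scaling the shares were 71.5% new in domains against 56.2% outside, and 47.5% lost against 25.5%. That scaling sets the limit at 4 times 0.232 at 0 h and 4 times 0.184 at 48 h, below the library mean. At so few tags per bin counting error alone can pass the limit, so these shares do not bear on turnover. The 928 new islands lay in 465 domains (39.9%). Few were near a gene's start: 61 (6.57%) lay within 2 bins of a protein-coding start, against 188 of the 620 kept islands (30.3%). New islands in domains were thus mostly distal, as they were outside domains (3.46% near a start). Of the kept islands outside domains, 41.9% were near a start. The shares of new and lost islands thus mix distal islands and those at starts in unlike parts, and turnover was not counted apart for distal islands.

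At the highest 1 kb bin of the 928 new islands, pooled H3K27Ac was 0.94, 2.07, 4.92, 10.2 and 11.6 and H3K4Me1 was 3.26, 4.05, 7.91, 9.99 and 10.9 at 0, 3, 12, 24 and 48 h. The choice of these bins set their low H3K27Ac at 0 h and high H3K27Ac at 48 h, and did not use H3K4Me1, which was above the mean there at 0 h. H3K27Me3 at the same bins was 2.27, 2.22, 2.47, 1.99 and 1.90, and 10 to 20 kb away it was 2.38, 2.33, 2.82, 2.79 and 2.99. The ratio of peak to flank was 0.953 at 0 and 3 h, 0.877 at 12 h, 0.713 at 24 h and 0.637 at 48 h. Before acetylation these sites carried about the H3K27Me3 of their domain, and afterwards a dip stood in surroundings that had become higher. The flanks, not only the peak, set this ratio, since the peak itself was 1.90 (1.87 to 1.94) at 48 h against 2.22 (2.19 to 2.26) at 3 h. Background scaling nearly removes this fall of the peak, with 3.48 at 3 h and 3.41 at 48 h, and leaves the ratio to the flanks as it is.

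The dip was deeper at higher islands. At 48 h the ratio of peak to flank was 0.759 at the 530 new islands of 4- to under 8-fold H3K27Ac, 0.542 at the 219 of 8- to under 16-fold and 0.409 at the 179 of 16-fold or more, where it had been 1.02 at 3 h. The flanks of these groups were at 2.93, 3.03 and 3.10. Taken one by one over 3 kb, 46 of the 928 new islands (4.96%) were at least 2-fold lower in H3K27Me3 from 3 h to 48 h, 16 (1.72%) at least 2-fold higher and 423 (45.6%) lower by any amount. Among kept islands 3.55% were at least 2-fold lower and 3.06% higher, and among lost islands 0.289% and 4.62%. New islands of runs under 100 kb had 6.08% and 2.03%. A 2-fold fall over 3 kb was thus seen at few islands, and its share at new islands was near that at kept islands.

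**Figure D3:**
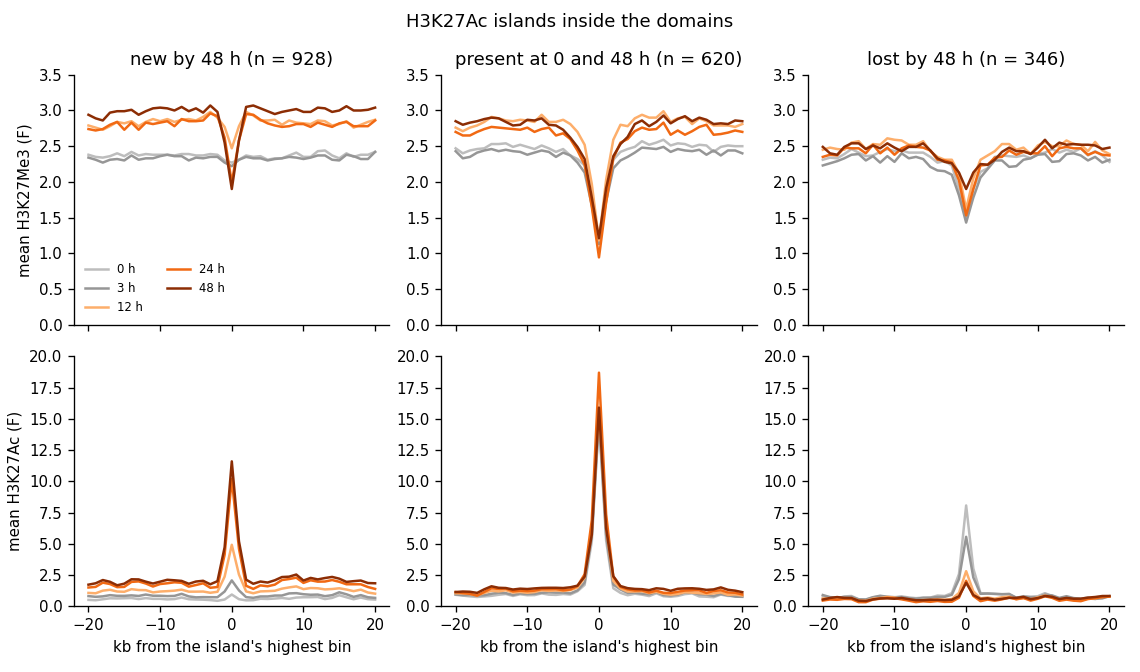
Mean H3K27Me3 (upper row) and H3K27Ac (lower row) per 1 kb bin (F, 1 is the library mean) against the distance in kb from the highest bin of H3K27Ac islands in domains that were new by 48 h (928), present at 0 and 48 h (620) or lost by 48 h (346). Lines are the 5 times. At new islands H3K27Me3 dips at the centre from 12 h on while the flanks become higher, and at lost islands the dip is shallower at 48 h.

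Islands present at both times already had low H3K27Me3 at their peak, 1.19 at 0 h and 1.21 at 48 h, or 0.478 and 0.426 of their flanks. At the 346 lost islands H3K27Ac was 8.07 at 0 h and 1.88 at 48 h, and H3K27Me3 at the peak was 1.43 at 3 h and 1.90 at 48 h. The ratio to their flanks was 0.616 and 0.763, the reverse of the new islands. In runs under 100 kb, 2123 new islands had a ratio of 0.96 at 3 h and 0.605 at 48 h, so the dip was as deep there as in the domains.

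Among the 20 new islands of highest H3K27Ac at 48 h, which lay in 18 domains, the peak bin held at most 8 H3K27Ac tags at 0 h and at least 337 at 48 h. H3K27Me3 tags in the same bins ranged from 7 to 33 at 3 h and from 0 to 14 at 48 h, and all 20 were lower per library mean. A protein-coding start lay within 1500 bp of 1 of them, that of Ifitm6, and the median distance was 37.8 kb. The letters TTGCNNAA were found in 8 of the 20. Over all 928 peak bins the share was 43.1% (39.9 to 46.4), against 34.2% at kept and 36.7% at lost islands, 36.4% of all 1 kb bins in domains and 38.8% of all bins with a tag. The letters GAGGAAGT (or ACTTCCTC), an ETS-type site as bound by PU.1, were in 14.8% (12.5 to 17.2) of new, 11.3% of kept and 13.0% of lost islands and in 6.38% of domain bins. The GC content of these sets was 46.8%, 51.6%, 48.4% and 44.0%. A match of letters shows no binding, and factor binding was not analysed here.

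Domains with more new islands had larger gains of H3K27Me3. From 3 h to 48 h the median log2 change was 0.02 in the 699 domains without a new island, 0.18 in the 240 with 1, 0.27 in the 120 with 2, 0.31 in the 69 with 3 or 4 and 0.39 in the 36 with 5 or more. At least 1.2-fold higher were 8.87%, 27.9%, 53.3%, 65.2% and 72.2% of these. The islands were not the place of the gain. In 5 kb windows that neither held nor adjoined an H3K27Ac island of 0 or 48 h, the medians were 0.01, 0.16, 0.26, 0.36 and 0.47 (699, 239, 119, 69 and 31 domains with at least 5 such windows). H3K27Ac in those windows was 0.303 to 0.335 over the 5 classes at 0 h and 0.239, 0.311, 0.384, 0.445 and 0.567 at 48 h, so it moved with the H3K27Me3 away from islands too. GC content was 43.3%, 44.3%, 44.4%, 45.0% and 45.5%, and the part of these values in the result was not tested.

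**Figure D4:**
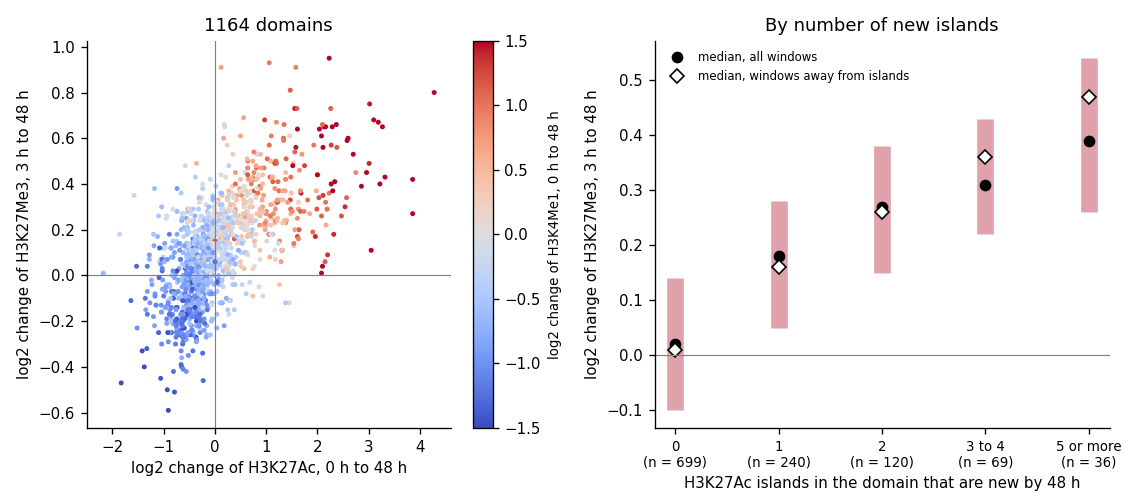
Left, each of the 1164 domains by its log2 change of H3K27Ac (0 h to 48 h) and of H3K27Me3 (3 h to 48 h), coloured by its log2 change of H3K4Me1 (0 h to 48 h). Right, the log2 change of H3K27Me3 by the number of new H3K27Ac islands in the domain, with medians over all windows (black points), the middle 50% (bars) and medians over windows away from islands (diamonds). Domains high in one change are high in the other, and medians go from 0.02 without a new island to 0.39 with 5 or more.

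The domain with the most new islands, 9, was chr11:4160001-4375000, which holds the start of Hormad2 and part of the cytokine gene Lif, whose start lies just outside. Its H3K27Ac was 0.402, 0.756, 2.31, 3.86 and 5.85 and its H3K27Me3 3.03, 2.97, 4.56, 3.76 and 3.99, higher at 12 h than at any other time. Of the 20 highest new islands it held those 37.9, 51.9 and 74.9 kb from the start of Lif. The largest rise of H3K27Ac was in chr8:27280001-27385000, which holds no gene and lies 11.3 kb from Thap1, with 0.244, 0.471, 0.857, 1.68 and 4.75. H3K27Me3 went from 2.02 at 0 h to 3.37 at 48 h in the same domain. Over the 10 domains of largest H3K27Ac rise, H3K27Me3 ranged from 1.90 to 2.97 at 3 h and from 2.59 to 3.99 at 48 h, and 4 of the 10 held no protein-coding start.

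The 5 largest rises of H3K27Me3 were in domains at 1.81 to 2.18 at 3 h and 3.40 to 4.13 at 48 h, and H3K27Ac in them went from 0.216 to 0.559 at 0 h up to 0.608 to 1.47 at 48 h. Among them was chr15:50720001-50860000 at Trps1, a GATA-type repressor, with H3K27Me3 of 1.94, 2.18, 3.26, 3.66 and 4.13. Another, chr3:133310001-133435000, lay 103.0 kb from Tet2, a 5-methylcytosine oxidase, and had 1.89, 1.81, 2.36, 3.17 and 3.40. These domains climbed step by step in the later libraries, which their choice by the rise from 3 h to 48 h favours. The peak at 12 h seen at Lif was absent here. It was not particular to Lif, since the Hoxc domain (4.06) and the Ifitm domain (3.48) were also highest at 12 h.

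All 5 of the largest falls of H3K27Me3 were in domains without a protein-coding start. The largest was chr7:144860001-144965000, 231.0 kb from Glrx3, with 1.85, 1.76, 1.46, 1.40 and 1.16. The domain chr11:24565001-24705000, 587.0 kb from Bcl11a, a B lineage transcription factor, had 2.79, 2.89, 2.48, 2.35 and 2.05. H3K27Ac in these 5 went from 0.324 to 0.718 at 0 h down to 0.17 to 0.287 at 48 h and H3K4Me1 from 0.598 to 0.765 down to 0.218 to 0.296. In these 5 domains falls of H3K27Me3 thus came with low and falling active marks by library mean. Such falls were common in the genome, with 51.2% of tiles lower in H3K4Me1 and 19.7% in H3K27Ac. Background scaling adds 0.33 to each log2 change of H3K27Ac. With it chr6:6255001-6365000 (-0.23) would no longer be falling in that mark.

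**Figure D5:**
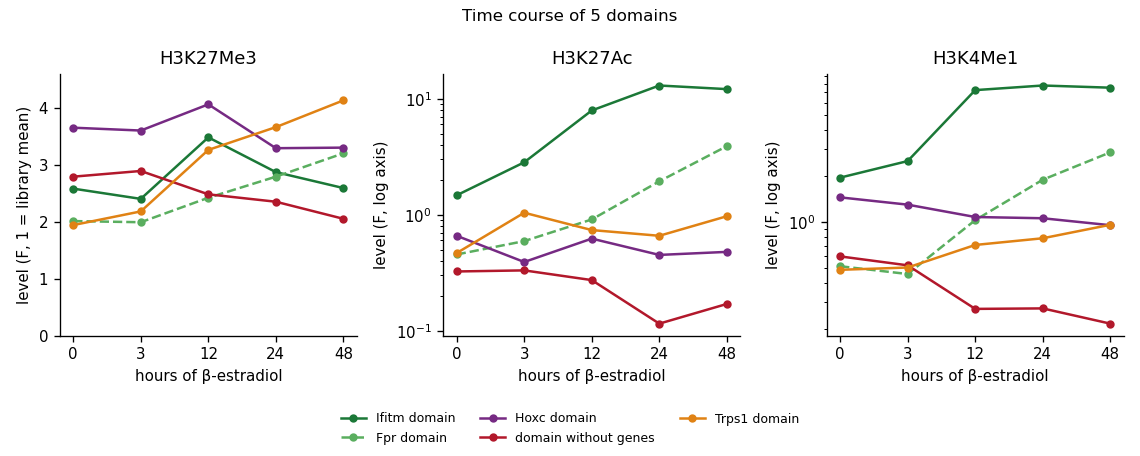
Time courses of H3K27Me3 (linear axis), H3K27Ac and H3K4Me1 (log axes) as F in 5 domains, those of Ifitm6, of Fpr1, of the Hoxc cluster, of Trps1 and the domain without genes on chromosome 11. H3K27Ac reaches 12.1 in the Ifitm domain and 3.90 in the Fpr domain at 48 h, and H3K27Me3 goes up to 4.13 at Trps1 and down to 2.05 in the domain without genes.

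Single 5 kb windows lost H3K27Me3 rarely. Of 35750 windows in domains, 85 (0.238%, 0.190 to 0.294) were at least 2-fold lower at 48 h than at 3 h, against 0.456% of the windows of other runs, and 316 (0.884%) were at least 2-fold higher, against 1.25%. The 85 windows lay in 66 domains. An H3K27Ac island of 48 h overlapped 31 of them (36.5%, 26.3 to 47.6), against 5.35% of all windows in domains, and in other runs the share was alike (38.2%).

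The domains held the starts of 1634 of 22350 protein-coding genes (7.31%, 6.97 to 7.66), about their share of the windows with a tag (7.13%), and 378 domains (32.5%) held none. Starts were read as tags within 1500 bp on each side and called past a 2-fold change with at least 20 tags in the higher library. From 0 h to 48 h, 104 starts in domains were higher in H3K27Ac (6.36%, 5.23 to 7.66, all starts 4.72%) and 63 lower (3.86%, 2.98 to 4.91, all starts 8.06%). Fewer starts in domains (415 of 1634) than in the genome (11790 of 22350) reached 20 tags in either library, which limits what could be called in either direction, so the lower share of falls in domains cannot be read as fewer falls among acetylated starts. In H3K4Me1, 64 starts were higher at 12 h than at 0 h (3.92%, all starts 3.38%) and 67 lower (4.1%, all starts 1.73%). By 48 h, 92 were higher (5.63%, all starts 3.25%) and 135 lower (8.26%, all starts 6.92%).

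At the 104 starts that gained H3K27Ac, median H3K27Me3 was 2.20 at 3 h and 2.66 at 48 h, and 5 of them (4.81%) were at least 2-fold lower, against 12 of the 1467 starts with neither change of H3K27Ac (0.818%, medians 1.93 and 2.18) and 0 of the 63 that were lower in H3K27Ac. Of the 104, 99 lay in domains whose H3K27Me3 was higher at 48 h than at 3 h by any amount, as did 1172 of the 1467 starts with neither change. In their 250 upstream bases these 104 had a median of 4 CG dinucleotides, against 7 at the other 1530 starts in domains and 8 at all protein-coding starts. The C/EBP letters were in 11.5% of the 104 (6.11 to 19.3) and in 9.16% of all. By their median the starts that gained acetylation were therefore CpG-poor, as were those in the genome that gained it (median 4). Still, 28 of the 104 (26.9%) held 10 or more CG, against 41.4% of the other starts in domains. Ifitm6, S100a8 and Fpr1, shown above, are CpG-poor members of the 104.

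The largest rises of H3K27Ac were at Sept14, Tnfsf14 and Ifitm6. At Sept14, a septin gene, tags were 3, 143, 372, 619 and 373, a ratio per library mean of 115.0 with a counting interval of 39.2 to 562.0. H3K27Me3 tags there were 134, 71, 82, 59 and 26, and the ratio of 48 h to 3 h was 0.433 (0.265 to 0.687). H3K27Ac was higher at each later time than at 0 h and H3K27Me3 was lowest at 48 h. Sept14 was also the largest rise of H3K4Me1 by 12 h (11 tags at 0 h and 216 at 12 h).

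Tnfsf14 encodes LIGHT, a TNF family ligand, and its H3K27Ac tags were 7, 12, 125, 739 and 608. The start of C3, the central complement component, lies in the same domain (chr17:57250001-57370000) and had 7, 67, 148, 130 and 77. The domain's H3K27Me3 was 2.46, 2.42, 2.75, 2.95 and 3.17, while H3K27Me3 tags at the 2 starts were 67 and 49 at 3 h and 37 and 23 at 48 h, ratios of 0.653 (0.425 to 0.99) and 0.555 (0.323 to 0.928). Domain and starts thus moved in opposite directions, though both upper bounds pass 1 with background scaling.

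The Ifitm domain, chr7:148140001-148270000, holds Ifitm1, Ifitm2, Ifitm3 and Ifitm6, interferon-induced transmembrane proteins, next to B4galnt4 and Pkp3. Its H3K27Ac was 1.47, 2.83, 7.92, 13.0 and 12.1, the highest of any domain at 24 and 48 h. H3K27Ac tags at the start of Ifitm6 were 17, 236, 699, 1325 and 1298, and at Ifitm3 19, 63, 261, 401 and 441. H3K27Me3 at Ifitm6 was 112, 64, 54, 31 and 17 tags, a ratio of 48 h to 3 h of 0.314 (0.172 to 0.543), and at Ifitm3 the ratio was 0.388 (0.222 to 0.651). The domain mean was 2.40 at 3 h, 3.48 at 12 h and 2.59 at 48 h, so the loss at these starts did not extend to the domain.

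The formyl peptide receptors, which sense bacterial peptides on phagocytes, lie in chr17:17920001-18040000 with Has1, a hyaluronan synthase. The domain's H3K27Ac was 0.454, 0.592, 0.91, 1.94 and 3.90, and its H3K27Me3 2.01, 1.99, 2.42, 2.79 and 3.20. At the start of Fpr1, H3K27Ac tags were 1, 7, 11, 17 and 41, a ratio of 38.0 with a counting interval of 6.45 to 1538.0. Fpr2 and Fpr3 start 28 bp apart and share their tags, 3, 8, 21, 47 and 106 at Fpr3. Here H3K27Me3 at the starts went up with the domain, with a ratio of 48 h to 3 h of 1.54 (1.10 to 2.14) at Fpr1 and 1.92 (1.28 to 2.92) at Fpr3, opposite to Ifitm6.

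Other starts differed in the same way. S100a8, a subunit of the neutrophil protein calprotectin, had 3, 4, 7, 73 and 94 H3K27Ac tags and an H3K27Me3 ratio of 1.05 (0.735 to 1.49). F5, coagulation factor V, had 23, 208, 473, 753 and 1206 H3K27Ac tags and a ratio of 0.542 (0.311 to 0.915). Marveld3, a tight junction protein, went from 0 to 22 H3K27Ac tags. Among the 15 largest rises, 5 had an H3K27Me3 ratio with an interval below 1 (3 with background scaling). The 3 with an interval above 1 were Fpr1 and the pair of Fpr2 and Fpr3 that share tags, all in 1 domain. Such intervals were not counted over all starts in domains, so they give no direction for starts that gained H3K27Ac. The other starts of largest rise were Sh3pxd2b, Prss22, Gm17455, Rnf130 and Tmigd1.

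The largest falls of H3K27Ac were at Rras2, a Ras-type GTPase (85, 181, 12, 16 and 7 tags), Pcp4, a calmodulin-binding peptide (49, 33, 12, 5 and 5), and Cobll1 (109, 161, 29, 12 and 14). B230359F08Rik (0.164 of its 0 h level at 48 h) and Prkcb, protein kinase C beta (0.157), followed. Most of the fall came between 3 and 12 h at Rras2, Cobll1 and Prkcb, where the 3 h values were above those of 0 h. H3K27Me3 at Cobll1 had a ratio of 1.53 (1.08 to 2.17) and at Rras2 of 0.925 (0.65 to 1.31).

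By gene group, Hox genes stood out. Of 40 Hox starts, 24 (60.0%, 43.3 to 75.1) lay in 5 domains, against 7.31% of all protein-coding starts, with 9 of 9 in Hoxc, 9 of 9 in Hoxd, 4 of 10 in Hoxb and 2 of 12 in Hoxa. The annotation gives Hoxa3 more than 1 start. Hox genes are clustered, so their starts are not independent, although the interval takes them as such. The Hoxc domain (chr15:102585001-102980000, 395 kb) had H3K27Me3 of 3.65, 3.60, 4.06, 3.29 and 3.30 and H3K27Ac of 0.658, 0.391, 0.622, 0.45 and 0.478. No Hox start in domains passed the fold as higher in H3K27Ac and 1 as lower, Hoxc4, with 345, 43, 274, 235 and 147 tags, against 6.36% and 3.86% of all starts in domains. At Hoxc8 and Hoxc10, H3K27Me3 tags were 171, 91, 122, 87 and 76 and 140, 80, 98, 84 and 73, ratios of 48 h to 3 h of 0.987 and 1.08. Of the 24 Hox starts in domains, Hoxc12 had a ratio with an interval below 1 (64 and 30 tags, 0.554, 0.347 to 0.868), Hoxd12 had one above 1 (52 and 73 tags, 1.66, 1.15 to 2.42), and the intervals of the others held 1. With background scaling 3 were above 1 (Hoxd12, Hoxd9 and Hoxb2) and 1, Hoxc12, below. The share of all starts in domains with such intervals was not counted, so these single starts give no direction for the Hox genes. Hoxc6 and Hoxc4 carried H3K27Ac at their starts inside this domain at both ends of the time course (180 and 345 tags at 0 h, 141 and 147 at 48 h).

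Developmental transcription factors other than Hox (Pax3, Gata4, Tbx2 and others) had 29 of 146 starts in domains (19.9%, 13.7 to 27.3), Wnt and Fgf ligands 10 of 41 (24.4%), keratins 25 of 97 (25.8%, 17.4 to 35.7, in 6 domains since keratin genes are clustered) and potassium channels 14 of 96 (14.6%). In these 4 groups 1 of 78 starts in domains was higher in H3K27Ac (Krt7, 1.28%) and 4 were lower (5.13%), among them Neurog3 and Fgf21, against 6.36% and 3.86% of all starts in domains. Solute carriers had 40 of 370 (10.8%, 3 higher), collagens 5 of 43 (11.6%, Col5a1 higher), cytochrome P450 genes 5 of 98 (5.1%), Zfp zinc fingers 9 of 371 (2.43%, Zfp423 lower) and Bmp ligands 1 of 11 (9.09%). Very few olfactory receptors lay in domains (16 of 1087, 1.47%), and of 320 vomeronasal receptor starts 0 did, which at 3 counts allows a share of up to 0.938% (exact upper bound 1.15%). Of 24 clustered protocadherins 0 did, which allows up to 12.5% (14.2%).

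Of 49 macrophage genes, 5 lay in domains (10.2%, 3.4 to 22.2), near the 7.31% of all starts. Of the 5, 4 gained H3K27Ac (Fpr1 and Fpr2, which share a domain, Clec7a and Csf1r), against 6.36% of all starts in domains. This was not particular to domains. Of the 8 macrophage markers used to check the cell type, 7 were at least 2-fold higher at 48 h, and only 1 of the 8 lies in a domain. At Clec7a, the beta-glucan receptor dectin-1, H3K27Ac tags were 19, 56, 42, 76 and 116, and at Csf1r, the receptor of CSF-1, 50, 120, 216, 559 and 268. Pparg, a nuclear receptor of lipid metabolism, had at most 8 tags at its annotated start, while its domain went from 0.522 to 1.49 in H3K27Ac and from 2.76 at 3 h to 3.86 at 48 h in H3K27Me3. Of 22 B cell genes (4.55% in domains), Blk, a Src family kinase, was the only one in a domain, with 28, 25, 5, 6 and 6 tags. The 6 of 20 T and NK cell genes in domains (an interval of 11.9% to 54.3% for the share) were Ctla4, Cd3g, Cd3d, Cd3e, Prf1 and Gzmb. They had at most 14 H3K27Ac tags at any time, and none passed the fold. Of these 6 starts, 1 had an H3K27Me3 ratio of 48 h to 3 h with an interval above 1 and 1 with an interval below 1. Such intervals were not counted over all starts in domains, so they give no direction for the group. The start above 1 was that of Cd3d, a T cell receptor subunit (63 and 93 tags, 1.75, 1.25 to 2.44). The start below 1 was that of Gzmb, a granzyme (61 and 31 tags, 0.601, 0.377 to 0.94). The intervals of the other 4 held 1. With background scaling 0 were below 1 and 2, Cd3g and Cd3d, above.

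Genes of the Polycomb machinery lay in domains in 2 of 25 cases (8.0%, 0.984 to 26.0), about the share of all starts. Cbx2, a reader of H3K27Me3, had H3K27Ac tags of 334, 372, 147, 144 and 128 at its start at the edge of chr11:118775001-118885000, a ratio of 48 h to 0 h of 0.355 (0.288 to 0.437). Pcgf5, a subunit of a variant Polycomb repressive complex 1, had 4, 35, 48, 27 and 6, higher only at the middle times. Its domain, chr19:36350001-36490000, went from 2.05 at 3 h to 3.28, 3.01 and 3.11 in H3K27Me3 at 12, 24 and 48 h.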

How the data were processed

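ChIP-seq for H3K27Me3, H3K27Ac and H3K4Me1 was analysed in 15 libraries, grouped by mark and time from their labels. The authors aligned the reads to mm9, allowing no mismatch (the submitters' notes name Bowtie, and the study's methods Eland or Bowtie), and discarded tags that aligned to several places or were identical. The deposited files list the position of each 36 bp tag, without strand, and hold no counts or normalized values. The files of H3K4Me1 at 0 and 48 h held up to 205 and 135 tags at a position and most others up to 2, so each position was counted once and placed 18 bp from its start. A pair of closing lines that gave no position was left out of each of 3 files.

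Tags were counted in windows of 5 kb and bins of 1 kb and divided by the library mean (Python 3.11.15, numpy 2.4.6, scipy 1.17.1, pandas 2.3.3). Libraries were not thinned. Sequence, GC content and gene starts came from NCBIM37 (mm9) with GENCODE vM1. Intervals are exact Poisson or binomial (95%), and ratios of tags have intervals from the binomial share of the summed tags. A single library per mark and time allowed no test between times. The calls of domains and of their changes in H3K27Me3 were checked on simulated data, and the calls of islands were not.

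The domains, lists and rules for named items were chosen with earlier results of these data known. Named were the 10 longest domains, the 5 of highest H3K27Me3 at 3 h, the 5 largest rises and falls of H3K27Me3, the 10 largest rises and 5 largest falls of H3K27Ac (at least 100 tags), the 15 starts of largest rise and 5 of largest fall of H3K27Ac, the 5 of largest H3K4Me1 rise by 12 h, and list members. Input, factor binding and expression data were not analysed here.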

Additional observations from a re-analysis of the deposited data

How the results depend on the processing

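Recomputing 14 results under 19 other settings gave 107 values, of which 60 stayed within a set limit and 47 moved past it. The limit was 1.5-fold for counts and lengths, and the 95% interval of the reported value for percentages, medians and ratios. Counts within the limit thus include 1657 domains in place of 1164 (2 windows between) and 353 in place of 248 higher in H3K27Ac (background scaling). A further 19 values came from settings chosen after seeing the data (24 h as the last time, and background scaling of other results), of which 14 moved. The median change of H3K27Me3 in domains stayed above 0 in all settings, but those of H3K27Ac and H3K4Me1 turned from -0.14 and -0.49 to 0.19 and 0.30 with background scaling. With a window minimum of 1.2 or 2 in place of 1.5 there were 2020 or 341 domains of 343.0 or 46.0 Mb. Joining no windows gave 532 domains (72.7 Mb), joining across 2 gave 291.0 Mb, a minimum length of 50 kb gave 3386 (329.0 Mb) and of 200 kb 191 (49.7 Mb). The percent of domains at 1.5 at 48 h was 97.9 with a window minimum of 2, 100.0 and 95.4 with 0 and 2 windows between, 96.0 from 50 kb, 98.2 in thinned libraries, 99.9 with background scaling and 99.7 at 24 h. The percent called again was 78.6 (window minimum 1.2), 66.5 and 80.6 (0 and 2 windows between), 81.8 and 62.8 (from 50 and 200 kb), 69.0 (80% of the domain covered) and 81.7 (24 h). The median log2 change of H3K27Me3 was 0.08 and 0.14 (window minimum 1.2 and 2), 0.13 and 0.07 (from 50 and 200 kb), 0.30 (background scaling) and 0.07 (24 h). Domains higher in H3K27Me3 numbered 667 with background scaling, 35 at 1.5-fold and 136 at 24 h, and lower 5, 1 and 9. For H3K27Ac, 154 were higher and 50 lower at 2-fold, 147 and 632 at 24 h, and 68 lower with background scaling. For H3K4Me1, 426 were higher and 23 lower with background scaling, and 86 and 172 at 2-fold. Islands numbered 8766 with background scaling (71.5% new and 47.5% of those at 0 h lost) and 847 at 8-fold, the ratio of H3K27Me3 at new peaks (48 h over 3 h) went from 0.856 to 0.979 and the starts of largest rise with an H3K27Me3 interval below 1 from 5 to 3 with background scaling (Hox starts above 1 from 1 to 3, T and NK starts above 1 from 1 to 2 and below 1 from 1 to 0), and 157 starts were higher in H3K27Ac with a minimum of 10 tags. The percent of protein-coding starts in domains was 13.0 and 2.14 (window minimum 1.2 and 2), 14.8 and 1.82 (from 50 and 200 kb) and 6.48 (domains set by 3 h). The cause of these moves was not tested beyond the construction of each alternative.

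No paired analysis was possible because there was 1 library for each mark at each time. Differences between times are differences between libraries, and antibody efficiency and cell state cannot be told apart in them. Thinning each library to the smallest of its mark, which evens out depth, gave 256 and 39 domains higher and lower in H3K27Me3 and 240 and 200 in H3K27Ac. A domain held a median of 3933 H3K27Me3 tags at 0 h and 2077 at 48 h, which made its level precise, but a median of 264 to 441 H3K27Ac tags, and single starts with under 20 tags could not be called. Percentages of higher and lower domains depend on the scaling, and orders among domains do not.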
